A study of Mus musculus with 10 samples.

Results

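The expression of 9 transcription factor genes of the natural killer cell (NKC) lineage and of NKC maturation was followed in cultured mouse splenic NKC with and without Runx3. The set named 10 genes, *Tbx21*, *Eomes*, *Tox*, *Id2*, *Nfil3*, *Zeb2*, *Prdm1*, *Gata3*, *Bcl11b* and *Tcf7*. A gene was included through every probe set that the array platform's gene table assigns to its symbol alone. Probe sets with several symbols were left out. This gave 21 probe sets of 9 genes, out of 34958 probe sets of 18194 genes with a single symbol. No probe set carried *Tcf7* as its only symbol, and this gene was therefore not analysed here. The value of a gene is that of its probe set with the highest mean over all arrays. Signals are log2 GC-RMA values, on which 1 unit is a doubling. The level of one probe set is not comparable with that of another, so each gene was compared with itself only.

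The 10 Affymetrix arrays came from ICR mice aged 6 weeks, either wild-type (WT, Runx3 +/+) or knockout (KO, Runx3 -/-, with no Cre driver or conditional allele named), each sample from its own mouse. The labels give the sex as male or female for all. Spleen NKC had been enriched by negative selection and sorted for the marker DX5. The culture lasted 7 days, with human IL-2 at 1000 u/ml for 3 WT and 3 KO samples and mouse IL-15 for 2 WT and 2 KO samples. The signal of *Xist*, a transcript of female cells, was low in all IL-2 arrays and high in all IL-15 arrays. Sex and cytokine can therefore not be told apart in any comparison between the cytokines. The methods state that nearly all cells bore NKp46 when the culture ended. In the deposited values, WT and KO arrays of the same number within a cytokine always have the same sum, to within 0.00014, so differences between numbered pairs had been removed before deposit. A KO array is therefore as far from its group mean as its WT partner, in the opposite direction, and the spread reported here is that of the KO minus WT differences between pairs, 3 for IL-2 and 2 for IL-15. It also follows that WT and KO arrays of a cytokine do not overlap exactly where all its pair differences share a sign. Lack of overlap between genotypes thus adds nothing to the signs of these few pairs. Of 11 named NKC markers, 10 reached log2 5 in every group (the other, *Itga2*, did not), whereas among 9 T cell markers the same 4 (*Cd28*, *Cd3d*, *Cd3e* and *Cd3g*) did so in every group, and *Cd4*, *Cd5*, *Cd6*, *Cd8a* and *Cd8b1* in none. The *Runx3* probe set lay at 10.66 to 12.06 in all 6 IL-2 arrays, at 12.45 and 12.51 in WT and at 11.41 and 11.35 in KO in IL-15. Its position relative to the deletion is not given in the sources used here, so it does not check the labels.

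NKC arise from bone marrow progenitors that commit through Nfil3, Id2 and Tox, and then mature under 2 related T-box factors, T-bet (*Tbx21*) and Eomesodermin (*Eomes*). Zeb2 and Blimp-1 (*Prdm1*) act late, in terminal maturation, while GATA-3, Bcl11b and TCF-1 (*Tcf7*) are best known from the T lineage and are also used by subsets of innate lymphocytes. IL-2 and IL-15 signal through shared receptor chains and support growth and effector function of NKC, and Runx3 is a DNA-binding factor of the Runt family that these cells express.

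The promoters of the T-box pair are shown because both hold letters of the RUNX motif close to the start. A further reason was that their KO minus WT differences in IL-2 had opposite signs. The *Eomes* difference did not pass the test, and a link between motif and difference was not tested. Each line gives the 250 bases before the start of transcription (RefSeq, GRCm38.p6), 5′ to 3′ on the strand of the gene, with the match in capitals. The motif was searched on both strands as TGTGGT or with a last base C as TGTGGC, and in the variants spelled TGCGGT or with a last base C as TGCGGC.
Tbx21, chr11:97115332-97115581, minus strand: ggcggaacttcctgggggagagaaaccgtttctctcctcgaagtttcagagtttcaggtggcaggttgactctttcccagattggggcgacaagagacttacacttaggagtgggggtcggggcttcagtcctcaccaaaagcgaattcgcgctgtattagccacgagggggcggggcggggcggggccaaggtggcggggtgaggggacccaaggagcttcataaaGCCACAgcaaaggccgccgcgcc
Eomes, chr9:118477939-118478188, plus strand: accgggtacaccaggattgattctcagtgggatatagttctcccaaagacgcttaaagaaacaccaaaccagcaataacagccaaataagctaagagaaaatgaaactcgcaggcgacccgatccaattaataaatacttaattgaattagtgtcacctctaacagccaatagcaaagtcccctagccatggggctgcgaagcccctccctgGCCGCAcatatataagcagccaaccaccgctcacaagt
The *Tbx21* match, GCCACA, begins 23 bases before the start and reads TGTGGC on the other strand. The *Eomes* match, GCCGCA, begins 38 bases before the start and reads TGCGGC on the other strand. Of the 8 measured genes with a window in the table, 4 had a match in at least 1 window (*Tbx21*, *Eomes*, *Nfil3* and *Prdm1*), and *Id2*, *Zeb2*, *Gata3* and *Bcl11b* had none. Of 27025 genes in the table, 41.3% had such a match. A match describes the letters of this window only.

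In IL-2, KO NKC had higher signals of *Bcl11b*, *Tox*, *Tbx21* and *Gata3* and a lower signal of *Nfil3*, so 4 of the 9 genes rose and 1 fell. A gene counts as risen or fallen where the limma fit with pairs as a block gave an adjusted p under 0.05 (Benjamini-Hochberg, over the 9391 tested genes) and the means differed at least 1.5-fold. By this rule 10.5% of all tested genes rose and 9.17% fell in IL-2, 19.7% together. In IL-15, 2 of the 9 genes rose, *Tox* and *Bcl11b*, beside 0.458% of all tested genes that rose, 0.841% that fell and 1.3% in either direction. WT and KO arrays did not overlap for 9 of 9 genes in IL-2, beside 54.4% of all tested genes, and in IL-15 for 7 of 9, beside 64.6%. Given the equal pair sums, this only counts genes whose pair differences within a cytokine all share a sign. The median difference, KO minus WT, of the 9 genes was 1.13 in IL-2 and 0.11 in IL-15 on the log2 scale, beside 0.11 and -0.01 over all tested genes. Without regard to sign, the median difference was 1.21 in IL-2 and 1.12 in IL-15, beside 0.54 and 0.35 over all tested genes. RNA was taken from whole cultures, where fewer cells of a type and less RNA per cell cannot be told apart.

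**Figure D1:**
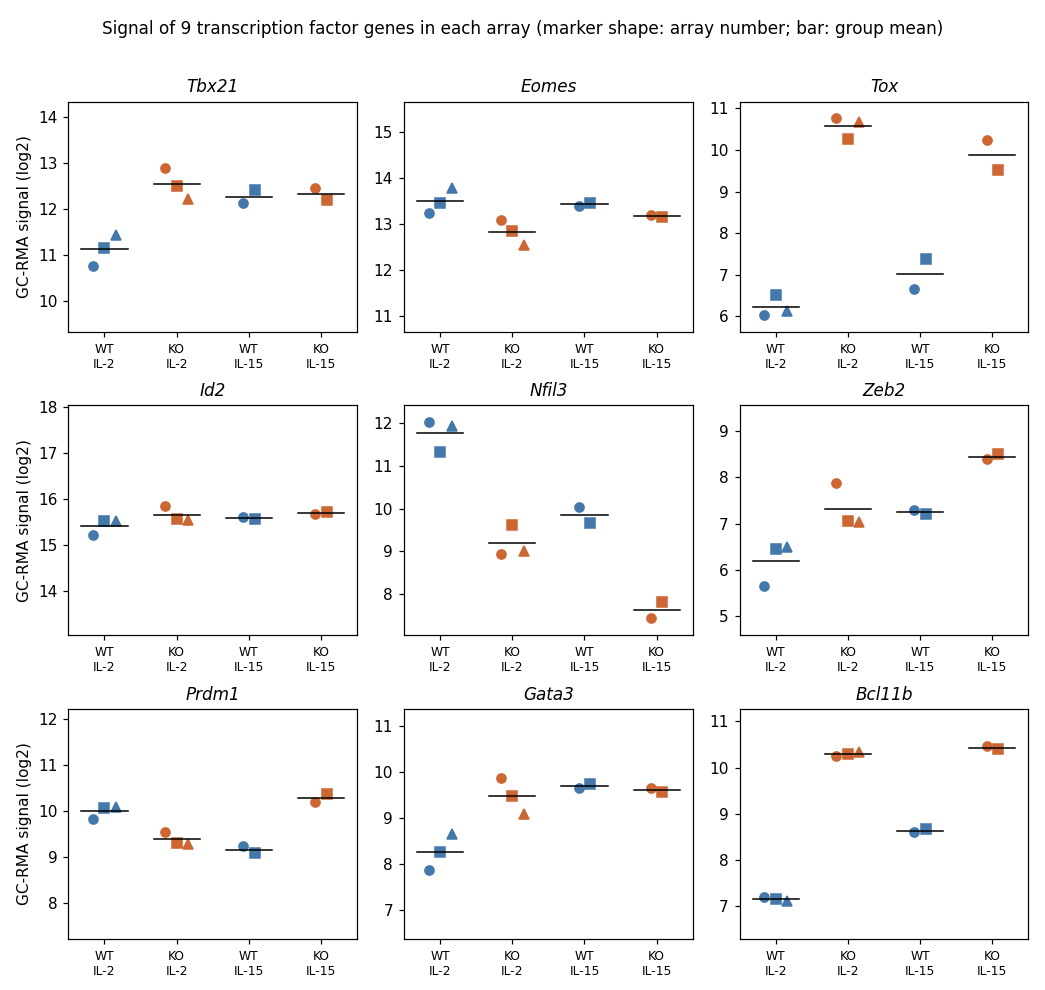
Log2 GC-RMA signal of the 9 genes in each of the 10 arrays, by group, with the array number as marker shape and the group mean as a bar; every panel has its own range of levels and spans at least 5 units. *Tox* and *Bcl11b* were higher in every KO array than in every WT array of either cytokine, and *Nfil3* was lower in KO within each cytokine.

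*Tbx21* encodes T-bet, which drives interferon-γ production and the later steps of NKC maturation. In IL-2, its probe set 1449361_at read 10.77, 11.16 and 11.44 in WT arrays 1 to 3 and 12.90, 12.50 and 12.23 in the KO arrays of the same numbers. In IL-15, it read 12.14 and 12.41 in WT and 12.46 and 12.19 in KO. The 3 WT arrays in IL-2 thus stood below all 7 others, while WT and KO overlapped in IL-15. *Tbx21* rose in KO in IL-2 by 1.42 ± 0.67 (SD, 3 pairs), 2.68-fold, with an adjusted p of 0.026 by limma. The call was lost without pair 1 (1.06, adjusted p = 0.123) or without pair 2 (1.46, adjusted p = 0.0867). The difference in IL-15 was 0.05 ± 0.38 (2 pairs), with a 95% interval from -0.88 to 0.99.

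*Eomes* encodes the T-box factor that conventional NKC need for their development and for much of their receptor repertoire. Its brighter probe set, 1435172_at, read 13.23, 13.46 and 13.78 in WT and 13.09, 12.86 and 12.54 in KO in IL-2. It read 13.40 and 13.45 in WT and 13.20 and 13.15 in KO in IL-15. Every KO array lay below every WT array of the same cytokine, by a margin that was small in pair 1 of IL-2. The differences were -0.66 ± 0.55 in IL-2 (limma adjusted p = 0.145) and -0.25 ± 0.08 in IL-15 (adjusted p = 0.851), and neither passed the test. The second probe set, 1426001_at, read 12.59, 12.70 and 13.49 in WT and 11.83, 11.72 and 10.94 in KO in IL-2. The IL-15 arrays read 11.73 and 12.11 in WT and 11.37 and 10.99 in KO. WT and KO did not overlap there either, and the differences, -1.43 ± 0.98 for IL-2 and -0.74 ± 0.55 for IL-15, did not pass the test over 17729 probe sets (adjusted p = 0.0566 and 0.627).

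*Tox* encodes an HMG-box factor required for NKC and innate lymphoid progenitors, and it had the largest KO difference of the 9 genes in both cytokines. In IL-2, probe set 1425484_at read 6.03, 6.52 and 6.12 in WT and 10.76, 10.28 and 10.67 in KO. In IL-15, the signals were 6.65 and 7.37 in WT and 10.24 and 9.52 in KO. All 5 KO arrays were above all 5 WT arrays, and the IL-15 values of WT and KO lay between the IL-2 values. *Tox* rose by 4.35 ± 0.52 in IL-2, 20.4-fold (limma adjusted p = 0.00158), and by 2.87 ± 1.02 in IL-15, 7.31-fold (adjusted p = 0.0409). The IL-15 call was lost without pair 1 (2.15, adjusted p = 0.397) or pair 2 (3.59, adjusted p = 0.0938).

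The other 2 *Tox* probe sets differed in how far they followed. Probe set 1425483_at had group means of 3.08 in WT and 7.51 in KO in IL-2 and of 3.97 in WT and 7.29 in KO in IL-15. Its WT means were under log2 5, the level used here as the limit of detection, so the KO mean was at least 5.7-fold higher in IL-2 and at least 4.88-fold higher in IL-15, and it passed the test in IL-2 (adjusted p = 0.0112) but not in IL-15 (adjusted p = 0.169). Probe set 1442039_at had KO minus WT differences of 0.81 ± 1.07 and 1.09 ± 0.88, and passed in neither cytokine (adjusted p = 0.256 and 0.502).

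*Id2* encodes the inhibitor of E proteins that innate lymphocytes rely on. Its brightest probe set, 1435176_a_at, read 15.23, 15.52 and 15.54 in WT and 15.86, 15.57 and 15.55 in KO in IL-2. In IL-15, it read 15.62 and 15.58 in WT and 15.69 and 15.73 in KO. All 10 arrays lay close together, with the KO arrays just above the WT arrays of their cytokine, and near log2 16, the top of the scale of a 16-bit scanner; saturation was not tested. The difference was 0.23 ± 0.34 in IL-2 (95% interval from -0.37 to 0.83) and 0.11 ± 0.06 in IL-15 (from -0.63 to 0.84), and neither passed the test (limma adjusted p = 0.551 and 0.95). Probe set 1453596_at had a wider difference in IL-2, 1.82 ± 1.46, that did not pass the test either (adjusted p = 0.0785), and 1422537_a_at differed by 0.30 ± 0.47 in IL-2 and, with no overlap, by 0.53 ± 0.15 in IL-15 (adjusted p = 0.482 and 0.605).

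*Nfil3* encodes a bZIP factor needed for the earliest committed NKC, and it was the single gene of the 9 that fell. Its only probe set, 1418932_at, read 12.03, 11.34 and 11.95 in WT and 8.93, 9.62 and 9.01 in KO in IL-2. It read 10.03 and 9.65 in WT and 7.42 and 7.80 in KO in IL-15. The KO arrays were below the WT arrays in each cytokine, the WT arrays in IL-2 were the highest, and the KO arrays in IL-15 the lowest. *Nfil3* fell by 2.59 ± 0.76 in IL-2, 6.02-fold lower (limma adjusted p = 0.00574). The difference in IL-15, -2.23 ± 0.53, was of similar size, with a 95% interval from -3.25 to -1.21, and did not pass the adjusted threshold (adjusted p = 0.0709).

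*Zeb2* encodes a zinc-finger factor that acts with T-bet in terminal NKC maturation. Probe set 1434298_at read 5.64, 6.45 and 6.48 in WT and 7.87, 7.06 and 7.03 in KO in IL-2. The IL-15 signals were 7.29 and 7.20 in WT and 8.41 and 8.50 in KO. KO lay above WT in each pair, most in pair 1 of IL-2, and the WT arrays in IL-15 were within the range of the KO arrays in IL-2. The differences, 1.13 ± 0.96 and 1.21 ± 0.13, did not pass the test in either cytokine alone (limma adjusted p = 0.0795 and 0.314). Of its other 4 probe sets, 1422748_at had group means of 4.57 in WT and 5.76 in KO in IL-2. In IL-15 they were 6.97 and 8.29. Its IL-2 pairs 1 to 3 differed by 3.46, -0.06 and 0.18, with overlap of WT and KO. It passed the test in neither cytokine (limma adjusted p = 0.264 and 0.596). Probe set 1456389_at had means of 4.33 and 5.90 in IL-15 (adjusted p = 0.175) and stayed under log2 5 in both genotypes in IL-2. Probe sets 1454200_at and 1458941_at were too dim to be tested.

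*Prdm1* encodes Blimp-1, a repressor that accompanies terminal differentiation of lymphocytes. Its probe set, 1420425_at, read 9.83, 10.07 and 10.08 in WT and 9.56, 9.31 and 9.30 in KO in IL-2. In IL-15, it read 9.25 and 9.08 in WT and 10.20 and 10.37 in KO. KO was below WT in 3 of 3 pairs in IL-2 and above WT in 2 of 2 pairs in IL-15. The differences were -0.60 ± 0.29 (limma adjusted p = 0.133) and 1.12 ± 0.23 (adjusted p = 0.159), so neither passed on its own. *Prdm1* was the single gene of the 9 whose pair differences all had one sign in IL-2 and the other sign in IL-15. This pattern was shown by 6.2% of all tested genes. The lack of overlap of its groups follows from these signs and is no further support.

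*Gata3* encodes the zinc-finger factor of T cell and type 2 innate lymphoid programmes, which NKC also express. Probe set 1448886_at read 7.86, 8.26 and 8.65 in WT and 9.86, 9.47 and 9.08 in KO in IL-2. It read 9.63 and 9.73 in WT and 9.65 and 9.55 in KO in IL-15. As for *Tbx21*, the WT arrays in IL-2 stood below the other 7 arrays, and WT and KO overlapped in IL-15. *Gata3* rose in IL-2 by 1.21 ± 0.78, 2.32-fold (limma adjusted p = 0.0479). This call had the highest adjusted p of the 5 and was lost without pair 1 (0.82, adjusted p = 0.2), without pair 2 (1.22, adjusted p = 0.137), and in a fit of the IL-2 arrays alone (adjusted p = 0.0842). The IL-15 difference was -0.08 ± 0.14, with a 95% interval from -1.06 to 0.90.

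*Bcl11b* encodes the zinc-finger factor that fixes T cell commitment, and the spread over its IL-2 pairs was the smallest of the 9 genes. Probe set 1435227_at read 7.18, 7.15 and 7.09 in WT and 10.25, 10.29 and 10.34 in KO in IL-2. In IL-15, it read 8.59 and 8.66 in WT and 10.46 and 10.39 in KO. The KO arrays of both cytokines lay between 10.25 and 10.46, whereas the WT arrays in IL-15 lay above those in IL-2. *Bcl11b* rose by 3.15 ± 0.09 in IL-2, 8.89-fold (limma adjusted p = 0.00137), and by 1.80 ± 0.09 in IL-15, 3.49-fold (adjusted p = 0.0426). The IL-15 call was lost without pair 1 (1.74, adjusted p = 0.404) or pair 2 (1.87, adjusted p = 0.248), where the pair left is assumed to vary as the IL-2 pairs do.

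The further *Bcl11b* probe sets had higher means in KO in both cytokines as well, in part under log2 5. Probe set 1450339_a_at rose in IL-2 by 3.27 ± 0.54 (limma adjusted p = 0.00462) from a WT mean of 4.12, at least 5.23-fold. Probe set 1438784_at rose in IL-2 by 2.89 ± 0.54 (adjusted p = 0.0045), at least 1.48-fold above log2 5. The fourth, 1452966_at, with group means of 2.91 in WT and 4.79 in KO in IL-2, was too dim to be tested. In IL-15, 1450339_a_at and 1438784_at differed by 1.21 ± 0.86 and 0.94 ± 0.27 and did not pass the test (adjusted p = 0.308 and 0.349). There the means of 1438784_at, 3.96 in WT and 4.91 in KO, were under log2 5 in both genotypes. So were those of 1452966_at, 3.81 in WT and 4.56 in KO.

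**Figure D2:**
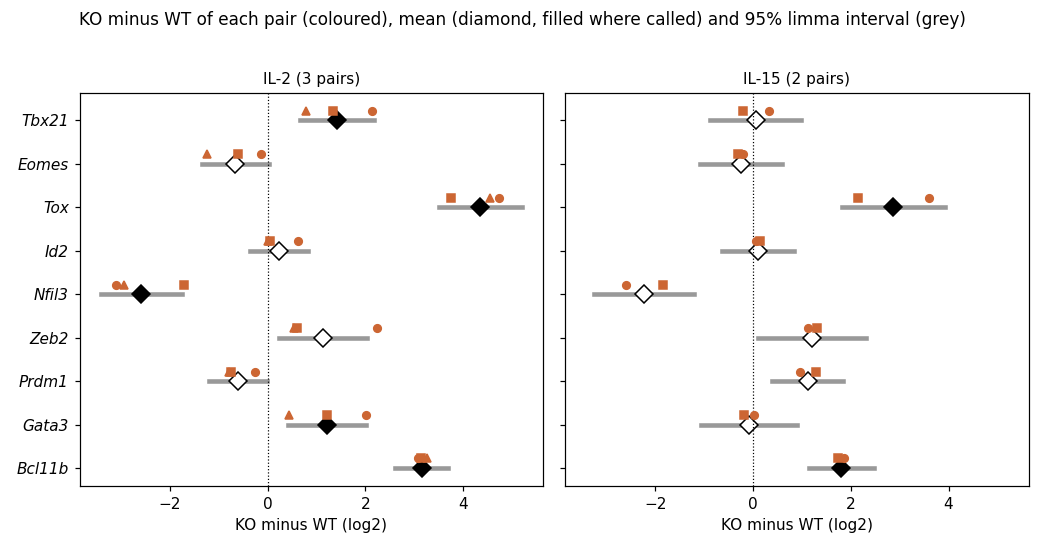
KO minus WT difference (log2) of each of the 9 genes in IL-2 (3 pairs) and IL-15 (2 pairs): coloured points are single pairs, diamonds their mean, filled where the gene was called, and grey lines the 95% limma interval. *Tox* and *Bcl11b* were called in both cytokines, *Nfil3* lay at -2.59 and -2.23, and *Prdm1* lay on opposite sides of 0.

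Over single probe sets, adjusted over all 17729 tested, 18 of the 21 could be tested, of which 6 rose and 1 fell in IL-2, beside 8.78% and 7.71% of all tested probe sets. The 6 were 1 of *Tbx21*, 2 of *Tox* and 3 of *Bcl11b*, and the one that fell was that of *Nfil3*. Every WT array of *Tox* probe set 1425483_at and *Bcl11b* probe set 1438784_at was under log2 5. These probe sets could therefore be tested only through KO arrays, where they were high. In IL-15, limma called 0 of 18, beside 0.474% of all tested probe sets, with 9 of the 18, and 12.4% of all tested probe sets, at an unadjusted p under 0.05. At this level the brightest *Tox* and *Bcl11b* probe sets had an adjusted p of 0.0568 and 0.0604 in IL-15.

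**Figure D3:**
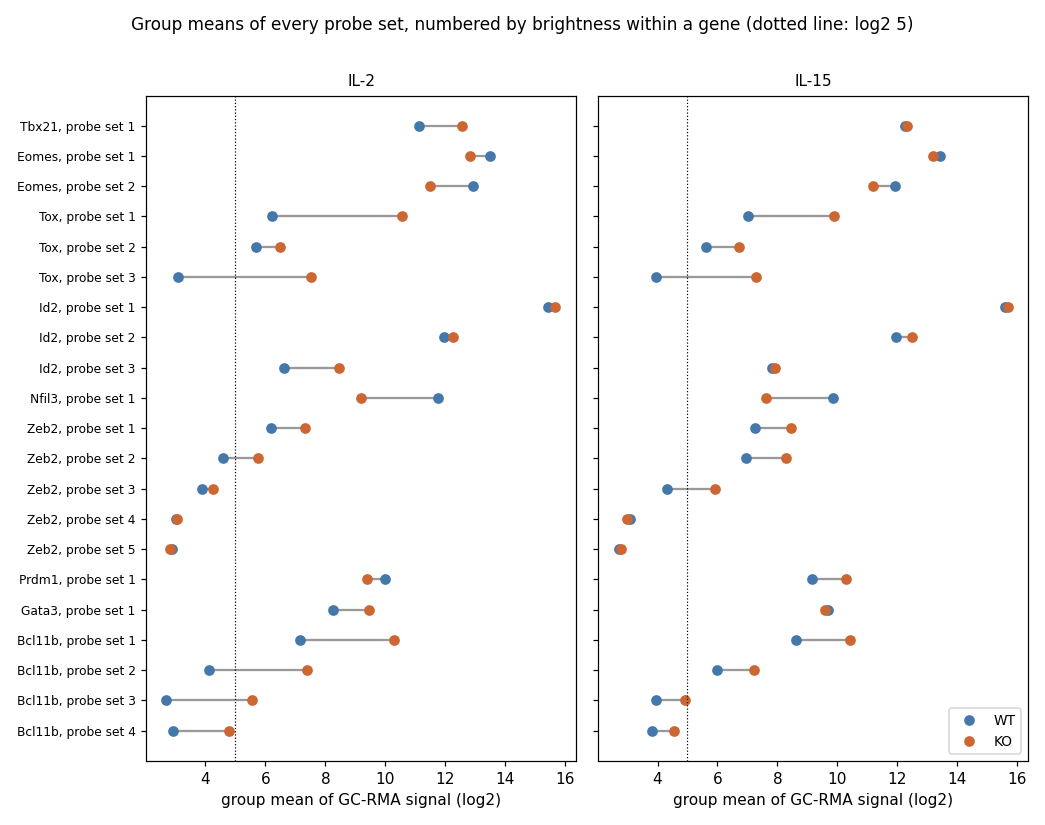
Group means of log2 GC-RMA signal of all 21 probe sets in IL-2 and IL-15, WT in blue and KO in orange, numbered within a gene from the brightest; the dotted line is log2 5, and levels of different probe sets are not comparable. KO means exceeded WT means in all 4 *Bcl11b* and all 3 *Tox* probe sets in both cytokines, and were below them in both *Eomes* probe sets.

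Averaged over both cytokines, with equal weight, *Tox*, *Bcl11b* and *Zeb2* rose in KO and *Nfil3* fell, beside 8.82% of all tested genes that rose and 8.36% that fell, 17.2% together. The mean KO effect was 3.61 for *Tox* (limma adjusted p = 0.00131), 2.48 for *Bcl11b* (adjusted p = 0.00114) and 1.17 for *Zeb2* (adjusted p = 0.0413), and it was -2.41 for *Nfil3* (adjusted p = 0.00364). *Zeb2* thus passed the test only in this average, and it did so with a 95% interval from 0.46 to 1.88. Its call was lost without any one of the IL-2 pairs 1 and 2 (adjusted p = 0.0603 and 0.0565) or the IL-15 pairs 1 and 2 (adjusted p = 0.168 and 0.186), with no filter on low values (0.14) and with single probe sets (0.0507).

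Whether the KO effect differed between the cytokines was tested directly as the KO difference in IL-15 minus that in IL-2. None of the 9 genes passed after adjustment by limma, as for all 9391 genes (0% called, smallest adjusted p 0.0551), while 5 of the 9, and 11.8% of all tested genes, had an unadjusted p under 0.05. *Prdm1* had the largest difference, 1.73, with a 95% interval from 0.79 to 2.66 (adjusted p = 0.258). The KO effect was smaller in IL-15 for *Tox* by 1.48, for *Tbx21* by 1.37, for *Bcl11b* by 1.35 and for *Gata3* by 1.30 (adjusted p = 0.398, 0.384, 0.305 and 0.417). For *Nfil3*, *Zeb2*, *Eomes* and *Id2* the difference between cytokines was 0.36, 0.08, 0.41 and -0.12, each with an interval that included 0.

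IL-15 was compared with IL-2 within each genotype by values alone, since equal pair means leave no measure of the spread of a cytokine mean. In WT NKC, *Gata3*, *Bcl11b*, *Tbx21*, *Zeb2* and *Tox* were higher in IL-15 and *Nfil3* and *Prdm1* lower, counting genes whose arrays did not overlap and whose means differed at least 1.5-fold, which held for 32.7% and 20.6% of all tested genes, 53.3% together. The WT difference, IL-15 minus IL-2, was 1.48 for *Bcl11b*, 1.43 for *Gata3*, 1.15 for *Tbx21* and 1.06 for *Zeb2*. It was 0.79 for *Tox*, -0.83 for *Prdm1* and -1.93 for *Nfil3*. The *Tox* value fell under 1.5-fold with quantile normalization (0.42), which left 6 such genes in WT, and its next brightest probe set differed by -0.07 in WT and 0.21 in KO. *Eomes* differed by -0.06 in its brighter probe set, with overlap, and by -1.01 in the second.

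In KO NKC, *Zeb2* and *Prdm1* were higher in IL-15 and *Nfil3* and *Tox* lower by the same count, beside 26.2% and 25.2% of all tested genes, 51.4% together. The KO difference was 1.14 for *Zeb2*, 0.90 for *Prdm1*, -0.69 for *Tox* and -1.57 for *Nfil3*. It was 0.13 for *Bcl11b*, 0.13 for *Gata3* and -0.22 for *Tbx21*, the genes with the 3 largest positive WT differences. In size, the cytokine difference was smaller in KO than in WT for 6 of the 9 genes, beside 50.1% of all tested genes. *Xist*, which is transcribed in female cells, read 4.64 to 5.37 in the IL-2 arrays and 14.28 to 14.66 in the IL-15 arrays, so the sex of the mice and the cytokine cannot be told apart, here or in the difference of the KO effect between cytokines.

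Ordered by group mean, the 4 groups fell into different sequences for different genes. For *Tox* the order from the top was KO in IL-2, KO in IL-15, WT in IL-15 and WT in IL-2, with no overlap between neighbours. *Bcl11b* had KO in IL-15, KO in IL-2, WT in IL-15 and WT in IL-2, also without overlap. For *Nfil3* the order was WT in IL-2, WT in IL-15, KO in IL-2 and KO in IL-15, and for *Prdm1* it was KO in IL-15, WT in IL-2, KO in IL-2 and WT in IL-15, both without overlap. In *Tbx21* and *Gata3*, WT in IL-2 was the lowest group and the other 3 overlapped with their neighbours. *Zeb2* had KO in IL-15 at the top and WT in IL-2 at the bottom, with an overlap between KO in IL-2 and WT in IL-15. *Eomes* and *Id2* had an overlap among their upper groups, the 2 WT groups of *Eomes* and the upper 3 groups of *Id2*.

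Over the 10 arrays, *Tbx21* followed *Gata3* (Pearson r = 0.957) and *Tox* followed *Bcl11b* (r = 0.953), while *Nfil3* ran against *Zeb2* (r = -0.936) and *Bcl11b* (r = -0.922). These coefficients are a description, since the arrays share 4 group means and mirrored pairs, and no p is given. Of all tested genes, the 2 most like each of the 9 by the same measure were *Tada1* and *Trbv1* for *Tbx21* (r = 0.996 and 0.995), *Acad11* and *Atp1b1* for *Eomes* (0.977 and 0.971), *Cep164* and *Tnfrsf13b* for *Tox* (0.997 and 0.993), and *Fermt3* and *Btbd2* for *Id2* (0.981 and 0.979). *Dmwd* and *Tnfrsf9* were closest to *Nfil3* (r = 0.994 and 0.994), *Mcm9* and *Cpne7* to *Zeb2* (0.989 and 0.989), *Slc39a8* and *Stx7* to *Prdm1* (0.887 and 0.874), *Klf13* and *Hhex* to *Gata3* (0.992 and 0.991), and *Cpd* and *Gpr137b-ps* to *Bcl11b* (0.993 and 0.991). *Prdm1* had the least similar neighbours of the 9.

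Relatives and partners of these factors were examined as a list of 35 genes, of which 19 could be tested. In IL-2, 6 rose and 1 fell in KO, beside 10.5% and 9.17% of all tested genes. The median was 0.04, beside 0.11 over all tested genes. In IL-15, 0 were called by limma, beside 1.3% of all tested genes. There, 15.8% (3 genes) had an unadjusted p under 0.05, beside 13.5% of all tested genes. *Tox2*, a relative of *Tox*, rose in IL-2 by 3.29 ± 2.72 (adjusted p = 0.0446), at least 3.44-fold above log2 5. *Dbp* and *Hlf*, PAR bZIP activators that bind the same sites as Nfil3, rose by 2.18 ± 0.55 (adjusted p = 0.00588) and 2.99 ± 0.91 (adjusted p = 0.0048, at least 1.14-fold above log2 5). The group mean of *Tox2*, and that of *Hlf*, exceeded log2 5 only in KO in IL-2. Both thus entered the test through the group in which they were high. *Zfpm1*, the GATA cofactor FOG-1, rose by 1.94 ± 0.44 (adjusted p = 0.00588). The co-repressor gene *Tle3* and the E protein gene *Tcf3* rose too, and the E protein gene *Tcf4* fell. In the mean effect 5 rose and 2 fell, beside 8.82% and 8.36% of all tested genes. The 2 that fell were *Tcf4* and *Bcl6*, the repressor that opposes Blimp-1. *Bcl6* passed only in this average (-0.90, limma adjusted p = 0.047). It differed by 0.04 ± 0.65 in IL-2 and by -1.84 ± 0.09 in IL-15 (adjusted p = 0.943 and 0.0783).

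Of 38 other transcription factors of NKC and innate lymphoid development, 34 were tested. In IL-2, 11 rose and 4 fell, beside 10.5% and 9.17% of all tested genes, with a median of 0.73. *Klf2*, which governs lymphocyte quiescence and trafficking, rose by 4.02 ± 0.43 (limma adjusted p = 0.0077), at least 6.25-fold. *Smad3*, a mediator of TGF-β signals, rose by 3.33 ± 0.43 (adjusted p = 0.00154) and *Maf* by 2.98 ± 0.55 (adjusted p = 0.00297). *Zbtb32*, a factor of NKC proliferation, fell by 3.96 ± 1.68 (adjusted p = 0.00908). The others that rose were *Runx1*, *Rora*, *Sox4*, *Ikzf3*, *Notch1*, *Irf1*, *Foxo3* and *Ets1*, and the others that fell were *Irf8*, *Myb* and *Hif1a*. *Rora* and *Sox4* rose from WT means under log2 5, at least 2.61-fold and 1.34-fold above it. The bound of *Sox4* is under 1.5-fold, and its group mean exceeded log2 5 only in KO in IL-2. In IL-15, 1 gene was called, *Ikzf2*, which fell by 2.94 ± 0.24 (adjusted p = 0.0363), beside 1.3% of all tested genes. An unadjusted limma p under 0.05 in IL-15 was reached by 9 of the 34 (26.5%), beside 13.5% of all tested genes. In the mean effect 9 rose and 5 fell, beside 8.82% and 8.36% of all tested genes.

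Genes linked to T-bet, Eomes, Zeb2 and Blimp-1 in NKC maturation comprised 26 names, of which 18 were tested. In IL-2, 8 rose and 3 fell, beside 10.5% and 9.17% of all tested genes, with a median of 0.74. *S1pr5*, the sphingosine receptor by which mature NKC leave the bone marrow, rose by 5.48 ± 0.68 in IL-2 (limma adjusted p = 0.00132), at least 36.3-fold, and by 5.12 ± 1.04 in IL-15 (adjusted p = 0.0111), at least 25.5-fold. *Cxcr3*, a chemokine receptor that T-bet is known to induce, rose by 3.88 ± 0.43 (adjusted p = 0.00132) in IL-2. *Cma1*, a granule chymase, fell by 6.15 ± 1.43 in IL-2 (adjusted p = 0.00908), at least 44.5-fold, and *Klrg1*, a receptor of terminally mature NKC, fell by 2.53 ± 1.16 (adjusted p = 0.0338). *Cd27*, a receptor of less mature NKC, rose with *Il7r*, *Ccl5*, *Tnfsf10*, *Ifng* and *Ccl3*, and the perforin gene *Prf1* fell. *Il7r* rose in IL-2 from a WT mean under log2 5, at least 1.32-fold above it, a bound under 1.5-fold. *S1pr5* was the single call of the list in IL-15, beside 1.3% of all tested genes, and its WT means were under log2 5 in both cytokines. An unadjusted limma p under 0.05 in IL-15 was reached by 10 of the 18 (55.6%), beside 13.5% of all tested genes. In the mean effect 7 rose and 4 fell, beside 8.82% and 8.36% of all tested genes. Among those that fell was *Kit*, called in this average only (-1.01, limma adjusted p = 0.0457). *Kit* differed by -0.22 ± 0.74 in IL-2 and by -1.80 ± 0.41 in IL-15 (adjusted p = 0.677 and 0.111).

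Of 24 T lineage genes linked to Tcf7, Gata3 and Bcl11b, 10 were bright enough to be tested. In IL-2, 4 rose and 1 fell, beside 10.5% and 9.17% of all tested genes, with a median of 1.02. *Ubash3a*, a regulator of antigen receptor signalling, rose by 2.60 ± 0.40 (limma adjusted p = 0.00781), the adhesion receptor gene *Cd2* by 2.15 ± 0.24 (adjusted p = 0.0048) and the receptor kinase gene *Zap70* by 1.24 ± 0.20 (adjusted p = 0.015). *Lat*, the adaptor phosphorylated by Zap70, rose as well, and the costimulatory receptor gene *Icos* fell by 1.85 ± 0.40 (adjusted p = 0.0086). In IL-15, 0 of the 10 were called, beside 1.3% of all tested genes, with 3 at an unadjusted p under 0.05 beside 13.5%. In the mean effect 4 rose and 1 fell, beside 8.82% and 8.36% of all tested genes.

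**Figure D4:**
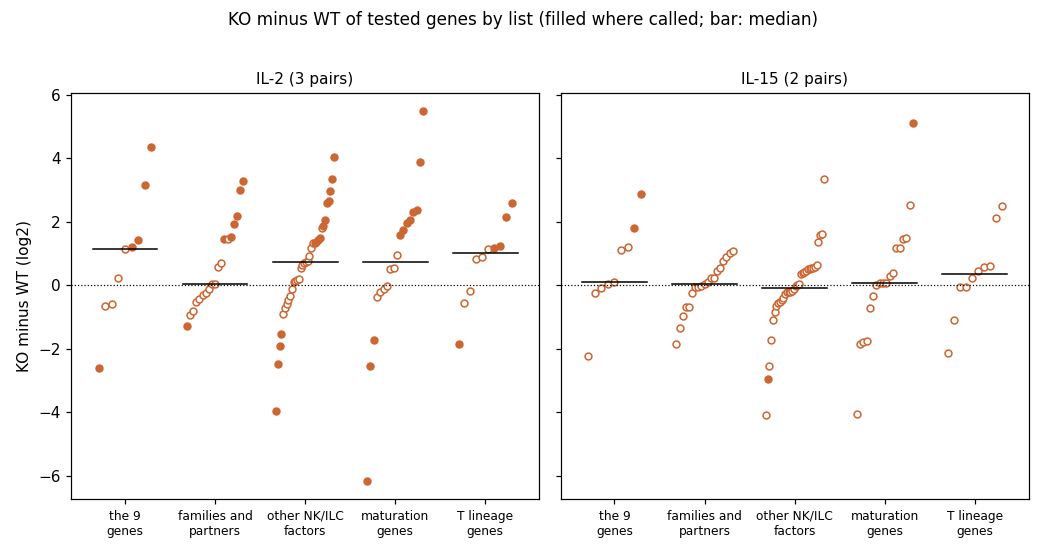
KO minus WT difference (log2) of the tested genes of the 9-gene set and of 4 lists, in IL-2 and IL-15; each point is a gene, filled where called, and bars are list medians. In IL-2 the medians of the 9 genes, the families and partners, the other NKC and innate lymphoid factors, the maturation genes and the T lineage genes were 1.13, 0.04, 0.73, 0.74 and 1.02, beside 0.11 over all tested genes.

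Markers of other cell types were read beside the rises of *Gata3* and *Bcl11b*. The mean signal of 9 T cell markers was 4.88 to 5.37 in the WT and 5.03 to 5.52 in the KO arrays in IL-2, and 5.06 to 5.47 and 4.91 to 5.32 in IL-15, and 0 of the 4 that were tested were called by limma in either cytokine, with 1 in IL-2 and 0 in IL-15 at an unadjusted p under 0.05. Of 4 named markers of group 2 innate lymphoid cells, *Il5*, *Il13* and *Il17rb* stayed under log2 5 in every group and *Rora* rose in IL-2. Of 5 named B cell markers, *Ighm* rose in IL-2 by 2.26 ± 0.16 (adjusted p = 0.0101) and *Cd79a*, *Cd79b*, *Ms4a1* and *Pax5* stayed under log2 5 in every group. Of the 4 named markers of group 1 innate lymphoid cells, *Tnfsf10* and *Il7r* rose and *Itga1* fell in IL-2. The rise of *Il7r* was at least 1.32-fold above log2 5.

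Of 8 macrophage and dendritic cell markers, 5 reached log2 5 in WT and 5 in KO in IL-2, and 2 in WT and 5 in KO in IL-15. The mean signal of these 8 was 4.96 to 6.76 in WT and 5.19 to 6.99 in KO in IL-2, and 4.36 to 5.36 in WT and 5.25 to 6.25 in KO in IL-15. In IL-2, *H2-Aa* rose by 2.64 ± 1.68 (limma adjusted p = 0.0373), at least 4.28-fold. *Cd14* fell there by 3.88 ± 2.92 (adjusted p = 0.0494), at least 6.4-fold. The group mean of *H2-Aa* exceeded log2 5 only in KO, and that of *Cd14* only in WT in IL-2. Among 6 mast cell and basophil markers, *Mcpt8* and *Cpa3* were lower in KO, and *Fcer1a*, *Ms4a2*, *Hdc* and *Gata2* stayed under log2 5 in every group. The part of other cells in the results on the 9 genes was not tested.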

How the data were processed

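RNA of 10 NKC samples was hybridised by the authors to Affymetrix mouse arrays. Deposited were the log2 GC-RMA signals of each probe set, made with Partek (versions not given, per the labels), with pair differences removed in a step that the sources used here do not describe. No further scaling was applied. Array medians lay between 3.20 and 3.37, and the number of arrays limits the precision.

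Gene symbols came from the gene table of the platform. Of 45101 probe sets, 34958 had 1 symbol, 932 several, and 9211 were not listed. A gene was tested where its probe set of highest mean reached log2 5 in at least 2 arrays (9391 of 18194 genes). limma 3.58.1 in R 4.3.3 was fitted to all 10 arrays with the pair as a block, which left 3 residual degrees of freedom. The pairing comes from the equal sums of same-numbered arrays, since crossed sums had a median difference of 0.193 for IL-2 and 0.17 for IL-15. Where the dimmer group mean was under log2 5, the fold is the brighter mean against log2 5. Calls used the difference of the means itself, without this limit.

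The 9 genes and the lists were chosen with earlier results of these data known. The text names all probe sets of the set, the called genes of each list with values for the 4 of largest difference, and for each of the 9 genes the 2 tested genes of highest r. Values of called genes beyond those 4, and of marker genes, were chosen after they were seen. Alternatives were the fit without the block, 2 scalings, 2 filters, single probe sets, the IL-2 arrays alone, another variance prior, the study's thresholds and each pair left out.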

Additional observations from a re-analysis of the deposited data

Results flagged for a closer look

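The KO effect on *Prdm1*, the gene of the repressor Blimp-1, differed in direction between the cytokines: KO was below WT in 3 of 3 pairs in IL-2 and above WT in 2 of 2 pairs in IL-15. The effect in IL-15 minus that in IL-2 was 1.73 on the log2 scale, with an unadjusted p of 0.00351 and an adjusted p of 0.258 by limma over 9391 genes, so the difference did not pass the adjusted threshold. Among all tested genes, 582 (6.2%) also had pair differences all of one sign in IL-2 and all of the other sign in IL-15. With equal pair sums, this is the same as groups that do not overlap. *Xist* was high in all IL-15 arrays and low in all IL-2 arrays, so sex and cytokine cannot be told apart in this difference.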

How the results depend on the processing

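Over all alternatives, 351 values of KO effects of the 9 genes kept their direction and side of the threshold, 15 passed it newly, 23 no longer passed it and 7 changed sign, none of them called in either fit and all with a pair left out. In IL-15, *Tbx21* went from 0.0528 to -0.2162 without pair 1 and *Gata3* from -0.0816 to 0.0187 without pair 2. In the difference between cytokines, *Id2* went to 0.0761 without IL-2 pair 1, *Zeb2* to -0.1801, -0.2134 and -0.0139 without IL-2 pair 2, IL-2 pair 3 and IL-15 pair 2, and *Nfil3* to -0.0182 without IL-15 pair 2. The main fit called 5 of the 9 genes in IL-2, 2 in IL-15, 0 for the difference between cytokines and 4 in the mean effect. Without the replicate block these were 8, 4, 3 and 5, a fit that understates the spread because pair differences had been removed, and over all genes the calls then rose from 1851 to 3803 in IL-2, from 122 to 1321 in IL-15, from 0 to 1157 for the difference and from 1613 to 2889 in the mean effect. With no filter on low values, over 18194 genes, 3 of the 9 genes were called in IL-2 and 0 in IL-15 (842 and 0 of all genes, and 642 in the mean effect). With single probe sets 0 of the 9 brightest were called in IL-15, and 2924 probe sets passed in IL-2. At the study's thresholds, without adjustment, 5 were called in IL-15 (1269 of all genes) and 3391 of all genes in IL-2. The filter at log2 6 called 4 genes of all for the difference between cytokines. Leaving out 1 pair in turn gave 3 to 5 calls of the 9 in IL-2, 0 in IL-15, 0 for the difference and 3 to 4 in the mean effect. Over all genes, 537, 1026 and 1525 were called in IL-2 without pair 1, 2 and 3, and 0 and 11 in IL-15 without pair 1 and 2. Without IL-15 pair 2, 1 gene of all was called for the difference. The mean effect called 779 of all genes without IL-2 pair 1, and 370 and 591 without IL-15 pair 1 and 2. The IL-2 calls of *Tox*, *Bcl11b* and *Nfil3* were kept in every alternative, that of *Tbx21* was lost with no filter (adjusted p = 0.0838), and that of *Gata3* was lost with no filter (0.13), with arrays centred on their median (0.0519) and with single probe sets (0.0556). *Nfil3* passed in IL-15 with a trended robust prior (adjusted p = 0.0448). The call of *Zeb2* in the mean effect was lost with no filter (0.14) and with single probe sets (0.0507). With quantile normalization 6 of the 9 genes, in place of 7, stood apart between cytokines in WT, and with arrays centred on their median 3, in place of 4, in KO. The IL-15 minus IL-2 difference of *Tox* reversed with its next brightest probe set, to -0.0692 in WT and 0.2065 in KO; the cause was not tested. *Tcf7*, 3 dim probe sets and the sex of the mice behind each cytokine limit what these arrays can show.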
